A study of Mus musculus with 12 samples.

Results

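The 6 wild-type libraries of a mouse cortex RNA-seq series were divided into classes chosen by their measured level of Ttr. This is the transthyretin transcript of choroid plexus epithelium. Ttr lay under 50 CPM (the count relative to the column total, scaled as usual) in 3 of the 6 libraries and at or above it in the other 3, of 12 libraries in the series. The Ttr-low libraries were KI_WT 3, KO_WT 1 and KO_WT 3, and the Ttr-high libraries were KI_WT 1, KI_WT 2 and KO_WT 2. The gap at the threshold was wide: the highest Ttr-low library had 8.76 CPM and the lowest Ttr-high library 785 CPM. All genes were then compared between the classes. Since Ttr chose the classes, every difference between them is given as a description without a test, and tests were kept for the 6 mutant libraries and for the genotype comparisons.

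Poly(A) RNA came from the cortex of adult mice of the strain C57Bl/6, and every library has a title with an animal number of its own. KI mice carry Grin1 exon 5 constitutively (Grin1-exon5+/+, knock-in), and KO mice lack it (Grin1-exon5-/-, knock-out). Grin1 encodes GluN1, the subunit that every NMDA receptor needs, and its exon 5 is spliced in or left out in normal brain. KI_WT and KO_WT are the wild types of the knock-in and the knock-out line, with 3 libraries in each of the 4 groups, and wild types of both lines are in both Ttr classes. The labels name no treatment, no sex and no dissection beyond cortical brain.

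The choroid plexus is a sheet of secretory epithelium on a vascular core that hangs in the brain ventricles and makes cerebrospinal fluid. Its cells export transthyretin, the carrier of thyroid hormone and of the retinol-binding protein complex, and they move ions and water through a large set of transporters. It lies beside the hippocampus and the striatum, is not cortex, and reaches a cortical sample only where ventricular tissue is taken along. In bulk RNA, fewer cells of a type and less RNA per cell cannot be told apart, and this holds for every value below.

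A list of 46 measured choroid plexus genes was used, of which 45 passed the count filter. Cldn3, a tight junction gene, did not, with 0.0646 to 0.27 TMM-scaled CPM in the 6 libraries. Levels below are TMM-scaled CPM, which corrects each library total for its composition, unless another scale is named. Of the 46 genes 44 had a lower mean in the Ttr-low class, but 7 of the 45 had under 10 counts in every Ttr-low library. Those 7 passed the filter only through the Ttr-high libraries and could hardly have gone the other way. Cldn2, Steap1 and Krt18 had under 10 counts in part of the Ttr-low libraries and likewise needed the Ttr-high ones to pass.

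In this paragraph the sequences before a RefSeq start of 4 of these genes are shown. They are shown because their transcripts were low together with Ttr and because their windows held the motif described next. Otx2, which encodes a homeodomain factor of choroid epithelium, is itself among them. The motif searched was TAATCC on either strand, the core bound by OTX-type homeodomains. It was sought in the 250 bases before each RefSeq start of a gene (GRCm38.p6). The Otx2 window lies before such a start but within the span of the gene given below (chr14:48657677-48673819). The Mfrp, Abca4 and Ace windows end just inside the annotated gene spans, which begin at 44101729, 122044443 and 105967945. Capitals mark the motif, as TAATCC or as its reverse complement GGATTA, and each run reads from 5′ to 3′ towards the start.
Otx2 (chr14:48665110-48665359, minus strand): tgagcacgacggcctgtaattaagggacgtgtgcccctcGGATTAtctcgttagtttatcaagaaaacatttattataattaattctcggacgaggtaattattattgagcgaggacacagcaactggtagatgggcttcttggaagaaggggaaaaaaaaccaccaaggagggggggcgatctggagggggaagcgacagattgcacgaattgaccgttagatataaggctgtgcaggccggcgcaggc
Mfrp (chr9:44101520-44101769, plus strand): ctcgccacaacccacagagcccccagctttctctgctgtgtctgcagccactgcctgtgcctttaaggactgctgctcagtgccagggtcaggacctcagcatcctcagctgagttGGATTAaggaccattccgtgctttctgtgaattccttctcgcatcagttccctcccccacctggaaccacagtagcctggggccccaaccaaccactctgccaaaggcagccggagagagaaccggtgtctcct
Abca4 (chr3:122044210-122044459, plus strand): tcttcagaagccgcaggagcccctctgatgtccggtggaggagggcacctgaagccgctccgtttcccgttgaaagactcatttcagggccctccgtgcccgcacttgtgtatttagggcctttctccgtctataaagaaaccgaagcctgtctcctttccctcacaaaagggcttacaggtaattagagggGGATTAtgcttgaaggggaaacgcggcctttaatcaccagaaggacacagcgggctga
Ace (chr11:105967698-105967947, plus strand): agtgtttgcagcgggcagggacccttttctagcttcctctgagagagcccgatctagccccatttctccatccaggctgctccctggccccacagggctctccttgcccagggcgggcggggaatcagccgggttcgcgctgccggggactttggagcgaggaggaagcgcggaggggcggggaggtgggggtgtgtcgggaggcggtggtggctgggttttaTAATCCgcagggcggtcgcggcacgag

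Of the 30 choroid genes without Ttr that met the criterion for lower transcripts given below, 24 were in the RefSeq promoter table. 1500015O10Rik, Clic6, Enpp2, Folr1, Lbp and Sostdc1 were not. The motif stood in 4 of the 24 genes (16.7%), against 7.21% of 27025 genes in the table. Per promoter it stood in 4 of 32 (12.5%), against 6.25% of 32851. A second homeodomain core, TAATTG of the MSX type, stood in 3 of the 24 genes (12.5%), against 8.3% of all. Per promoter this second core stood in 4 of 32 (12.5%), against 7.17% of 32851. These matches describe letters in a window and say nothing of binding. Exons of another coding gene overlap those of 6 of the 45 choroid genes in the annotation, Mfrp, Kcnj13, Prlr, Igf2, Col9a3 and Slc4a2. Whether counting used strand is not given in the sources used here, so their reads can include those of the neighbour.

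The libraries themselves were of like depth. The 6 wild-type libraries held 31790970 to 33969744 counts and 21927 to 22768 detected genes, so that a single count was worth 0.0294 to 0.0315 CPM. Pairs within a class differed by 9.24 to 44.3 times the sampling variance, and no library repeated another. Xist, the transcript of the inactive X chromosome in females, was at 750 CPM in KI_WT 1 and at 0.063 to 0.611 in the other 5 libraries, so that all 3 Ttr-low libraries and 2 of the 3 Ttr-high libraries were Xist-low. KO_WT 2 and KO_WT 3 also carry low animal numbers (93 and 95), and the other 4 libraries higher ones. The median log2 difference of the choroid plexus list given below (-1.69, with 30 genes called besides Ttr) was -1.54 with 29 called without KI_WT 1, and -1.83 with 30 called without KO_WT 2 and KO_WT 3. Markers of cortical neurons were present in both classes. The 10 upper-layer genes summed to 1270 to 1550 CPM in Ttr-high and 1290 to 1800 CPM in Ttr-low libraries, and the 11 deep-layer genes to 506 to 546 CPM against 566 to 626, without overlap.

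Across the transcriptome, choroid plexus genes were prominent among those lower with Ttr. A gene was called lower or higher where the 3 libraries of one class did not overlap the 3 of the other and the fitted difference was at least 2-fold. Of 16783 genes 137 were called lower in the Ttr-low libraries (0.816% of all genes) and 74 higher (0.441%). Of the 45 choroid plexus genes 31 were called lower, Ttr among them, and 0 were called higher. The 31 make up 22.6% of the 137 lower genes and 68.9% of the list. Without the fold criterion 36 of the 45 did not overlap on the lower side (6.54% of all genes) and 0 on the higher side (6.26%). The median log2 difference, Ttr-low minus Ttr-high, was -1.69 over the list without Ttr and 0.01 over all genes. These shares follow from a rule that used a choroid gene, and nothing further is read from them.

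**Figure D1:**
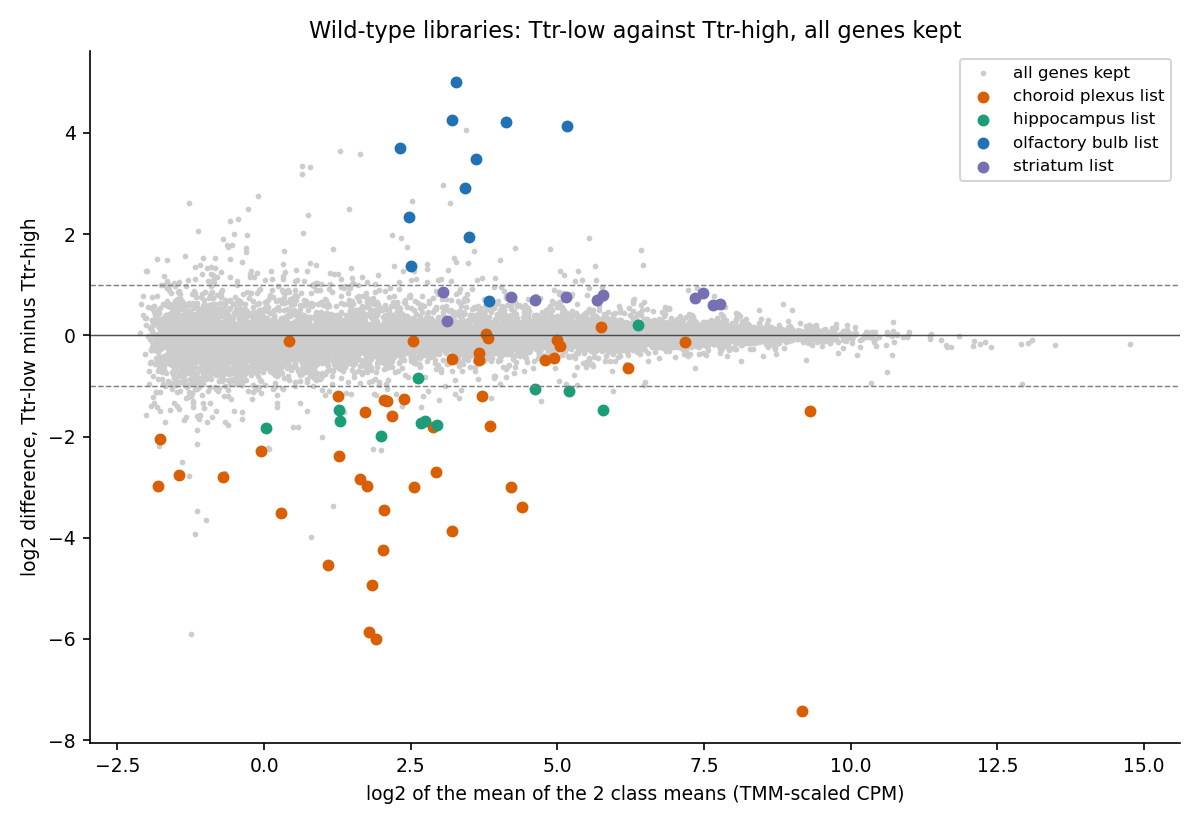
Each point is 1 of 16783 genes in the 6 wild-type libraries: the horizontal axis is the log2 of the mean level (TMM-scaled CPM) and the vertical axis the log2 difference, Ttr-low minus Ttr-high. Dashed lines mark 2-fold, and coloured points mark 4 marker lists: choroid plexus (median -1.69 without Ttr) and hippocampus (-1.58) lie mostly below 0, olfactory bulb (3.49) and striatum (0.73) above.

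The secreted and carrier proteins ran from Ttr, the steepest of the list, to genes near level. Ttr itself was at 1510, 1120 and 801 CPM in KI_WT 1, KI_WT 2 and KO_WT 2, and at 2.36, 8.69 and 8.84 CPM in KI_WT 3, KO_WT 1 and KO_WT 3. The Ttr-low mean was 6.63 ± 3.7 CPM (SD, n = 3) against 1140 ± 354 in the Ttr-high class, or 0.58%. Per length it was also the highest of the list, with a mean of 915 RPKM in the Ttr-high class, ahead of Enpp2 with 263 RPKM. Ttr was thus low but above 0 in all 3 libraries, with 79, 276 and 294 counts.

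Enpp2 encodes autotaxin, the enzyme that makes lysophosphatidic acid, and is made by oligodendrocytes as well as by choroid plexus. It was at 1130, 843 and 833 CPM in the Ttr-high libraries and at 325, 375 and 295 in the Ttr-low ones. Of the Ttr-high level 35.4% was left, a log2 difference of -1.5 (SE 0.14), the smaller loss of the pair of most abundant choroid transcripts.

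F5, coagulation factor V, was at 23, 12.4 and 16.6 CPM in KI_WT 1, KI_WT 2 and KO_WT 2 and at 0.866, 1.64 and 1.08 in KI_WT 3, KO_WT 1 and KO_WT 3 (log2 difference -3.86, SE 0.29). Sostdc1, a secreted BMP and Wnt antagonist, was at 7.33, 6.51 and 4.08 CPM against 0.717, 0.567 and 0.992 (-2.97, SE 0.29). For 1500015O10Rik, the row of the augurin gene Ecrg4, the values were 17.3, 13.2 and 9.07 CPM against 2.39, 1.04 and 2.59 (-2.71, SE 0.33). In each of these 3 genes KI_WT 1 was the highest library, as it was for Ttr. Calml4 (-2.39) and Lbp (-1.26), the lipopolysaccharide-binding protein, were also called.

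The growth factor pair of the list behaved otherwise. Igf2, insulin-like growth factor 2, which is shared by choroid plexus and meninges, was at 102, 92.8 and 76.7 CPM in the Ttr-high libraries and at 52.4, 52.5 and 68.7 in the Ttr-low ones, without overlap but under 2-fold (log2 difference -0.64, SE 0.13). Its binding protein Igfbp2 overlapped, at 27.4 to 36.7 CPM against 25.9 to 36.3 (-0.09, SE 0.14). Wfikkn2, a secreted protease inhibitor, overlapped too (-0.12, SE 0.2).

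Transporters and channels, which carry the ions and nutrients of cerebrospinal fluid, held the steepest differences after Ttr. Kcne2 (chr16:92292389-92298129), a subunit that modifies potassium channels of the apical membrane, was at 9.73, 6.63 and 5.89 CPM in KI_WT 1, KI_WT 2 and KO_WT 2. It was at 0.0299, 0.126 and 0.18 CPM in KI_WT 3, KO_WT 1 and KO_WT 3. That is 714 counts in the Ttr-high class and 11 in the Ttr-low class, a log2 difference of -6 (SE 0.39), with 1 count in KI_WT 3.

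Slc4a5, a sodium bicarbonate cotransporter, was at 8.95, 5.77 and 5.62 CPM against 0.0299, 0.157 and 0.15, again with 11 counts left in the Ttr-low class (log2 difference -5.87, SE 0.38). Tmem72, a membrane protein, was at 5.82, 3.09 and 3.3 CPM against 0.149, 0.157 and 0.211 (-4.53, SE 0.36). Folr1 (chr7:101858331-101870788), the folate receptor that carries folate into cerebrospinal fluid, was at 10.5, 6.97 and 5.71 CPM against 0.388, 0.346 and 0.481 (-4.24, SE 0.29). In all 3 genes the classes were far apart, and the Ttr-low libraries lay close together only for Tmem72 and Folr1.

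Kcnj13, an inward rectifier potassium channel of the epithelium, was at 13.3, 10 and 8.14 CPM against 1.46, 1.16 and 1.32 (log2 difference -2.99, SE 0.21). Clic6, a chloride intracellular channel protein, was at 27.9, 18.8 and 20.8 CPM against 6.9, 5.64 and 7.01 (-1.79, SE 0.16). Steap1 (-3.52), a metalloreductase family member, the monocarboxylate carrier Slc16a8 (-2.98) and the organic anion carrier Slco1a5 (-2.05) were lower as well, the last 2 from under 1 CPM in every library. Abca4 (-1.59), a flippase of the ABC family, and the cation channel Trpv4 (-1.2) completed those called. In all, 11 of 20 transporters and channels were called lower, against 0.816% of all genes.

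The other 9 transport genes were not called, and most are known from further cell types of brain. Abcc4, an efflux pump that is also vascular, was at 13.5, 11.9 and 15.3 CPM against 12.7, 12.9 and 15.7 (log2 difference 0.02, SE 0.13). Slc22a8, an organic anion carrier shared with brain endothelium, was at 13, 18.4 and 11.4 CPM against 14, 13.7 and 13.7 (-0.05, SE 0.16). Slc12a2, a sodium, potassium and chloride cotransporter of many cells, was at 153, 143 and 157 CPM against 136, 141 and 133 (-0.14, SE 0.069). Slc12a2 alone of these 3 did not overlap, although its difference was small.

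Aqp1, the water channel of the apical membrane, is a defining choroid marker and yet overlapped widely. It was at 7.43, 6.2 and 4.54 CPM in KI_WT 1, KI_WT 2 and KO_WT 2, at 0.504 CPM in KO_WT 1, but at 10.9 CPM in KI_WT 3 and 5.44 in KO_WT 3. KI_WT 3 and KO_WT 3 were also the libraries rich in olfactory bulb markers (below), and the part of those in the Aqp1 level was not tested. Slc4a2, Slc29a4, Slc13a4, Car12 and Slc31a1 lay between -0.49 and -0.22, and Slc4a2 and Slc29a4 of these did not overlap.

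Receptors and enzymes at the cell surface included 4 of 5 genes called lower, against 0.816% of all genes. Kl, the klotho coreceptor of FGF23, was at 52, 29.5 and 34.6 CPM in the Ttr-high libraries and at 2.96, 2.77 and 5.23 in the Ttr-low ones (log2 difference -3.4, SE 0.28). Prlr, the prolactin receptor, was at 51.3, 22.8 and 24.4 CPM against 3.79, 3.12 and 5.35 (-3, SE 0.34). For both, KI_WT 1 stood well above the other Ttr-high libraries, and KO_WT 3 was the highest of the Ttr-low ones.

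Mfrp, a frizzled-related membrane protein whose promoter sequence is shown above, was at 9.27, 6.84 and 6.46 CPM against 0.508, 0.724 and 0.812 (log2 difference -3.46, SE 0.23). Ace, the angiotensin-converting enzyme, was at 22.6, 16 and 16.2 CPM against 8.15, 8.44 and 7.37 (-1.19, SE 0.15). Htr2c, the serotonin 2C receptor, is abundant in choroid epithelium and also made by neurons. It was at 45.5, 50.6 and 54.4 CPM against 64.5, 45.7 and 59.2, so that the classes overlapped and the mean was on the higher side (0.17, SE 0.13).

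Junction, cytoskeleton and matrix genes gave 6 calls among 7 kept, against 0.816% of all genes. Cldn2, the claudin of leaky epithelia that lets water and cations pass, was at 10.3, 4.46 and 5.95 CPM against 0.358, 0.157 and 0.15 (log2 difference -4.93, SE 0.43). Cldn1, a barrier claudin also found in meninges, was at 7.17, 5.13 and 5.95 CPM against 2.36, 1.95 and 3.13 (-1.29, SE 0.21). The epithelial keratins Krt8 (-2.79) and Krt18 (-2.28) and the collagens Col8a1 (-1.81) and Col8a2 (-1.28) were also called, and Col9a3 (-0.48) did not overlap but missed 2-fold.

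All 3 transcription factors were called lower, against 0.816% of all genes. Otx2 (chr14:48657677-48673819), which specifies choroid epithelium, was at 5.43, 6.97 and 4.02 CPM against 0.955, 0.976 and 0.361 (log2 difference -2.84, SE 0.34). Msx1 was at 4.81, 4.86 and 4.96 CPM against 1.76, 1.64 and 1.68 (-1.52, SE 0.14), the tightest classes of the 3. Lmx1a, a roof plate factor, was at 0.614, 0.733 and 0.571 CPM against 0.0299, 0.063 and 0.18 (-2.76, SE 0.48), from 9 counts in the Ttr-low class.

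**Figure D2:**
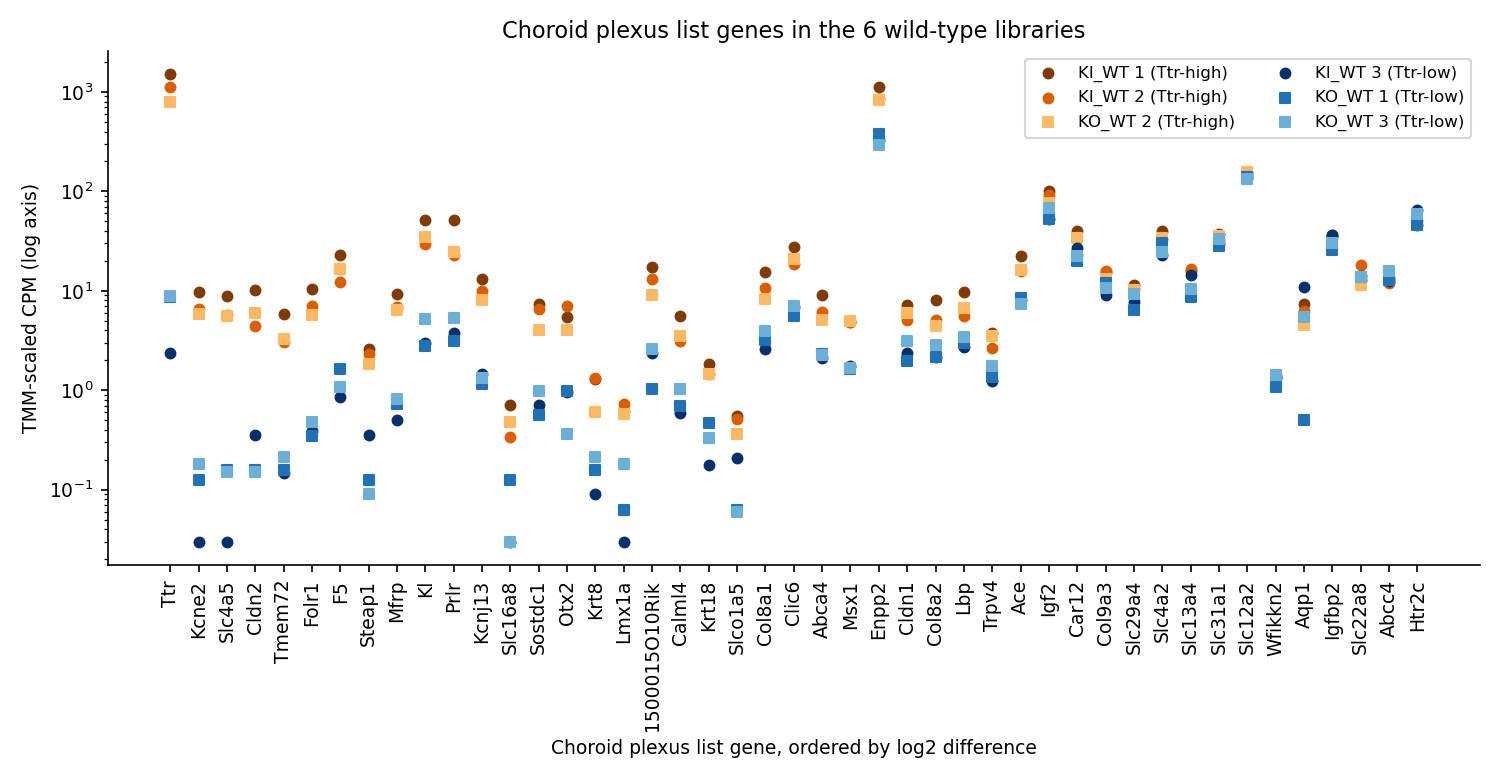
Each column is 1 of the 45 choroid plexus genes, ordered by log2 difference, and each point its level in 1 wild-type library (TMM-scaled CPM, log axis); orange points are Ttr-high and blue points Ttr-low libraries, circles KI_WT and squares KO_WT. The classes are far apart at the left, from Ttr (6.63 against 1140 CPM on average) onward, and mixed at the right, where Aqp1, Igfbp2, Slc22a8, Abcc4 and Htr2c lie.

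The remainder differed in size from gene to gene. In 5 of the 45 genes the Ttr-low mean was under 5% of the Ttr-high mean, in 14 it was 5% to 20%, and in 12 it was 20% to 50%. In 6 genes it was 50% to 80% and in 8 it was 80% or more. Counts relative to Ttr are given for 3 genes as a description, since the Ttr count is what put a library in the Ttr-low class and a low one raises the ratio by itself. Per 1000 counts of Ttr there were 5.91 to 7.35 counts of Kcne2 in the Ttr-high wild types and 4.66 to 7.38 in the mutants, against 12.7 to 20.4 in the Ttr-low wild types. Folr1 gave 6.21 to 7.12 and 5.73 to 8.51 in the first 2 sets, against 39.9 to 165. Clic6 gave 16.7 to 25.9 and 19.8 to 26.9, against 649 to 2920. These genes were chosen for this after their values had been seen.

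Of 11 choroid markers other than Ttr, 10 were called lower, against 0.816% of all genes. All 11 had the lower mean, Aqp1 being the exception to the call. This is no check of the label, because Ttr, a gene of the same cell type, made the classes. Kcne2, Slc4a5 and Tmem72 had under 10 counts in every Ttr-low library. The summed level of the 11 markers was 121 to 200 CPM in the Ttr-high and 15.5 to 28.3 CPM in the Ttr-low libraries. None was at 0 in any library. KI_WT 3 held 1 count each of Kcne2 and Slc4a5. These marker transcripts were thus lower in the Ttr-low libraries but not absent. Whether what was left came from choroid plexus or from other cells was not tested.

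The difference was present in both lines, although each line has few libraries. As log2(CPM + 0.5), KI_WT 3 lay below the mean of KI_WT 1 and KI_WT 2 by a median of -1.37 over the choroid list without Ttr. KO_WT 1 and KO_WT 3 lay below KO_WT 2 by a median of -0.99. For Kcne2 the line values were -4.03 and -3.29, for Prlr -3.13 and -2.39 and for Otx2 -2.2 and -1.95. Over all genes the median was 0 in both lines.

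Neighbouring tissues differed in what they shared with the choroid list. Ciliated ependyma lines the ventricles next to the plexus, and its list had 16 of 17 genes with the lower mean in the Ttr-low class, with a median log2 difference of -0.51. Of these, 9 did not overlap (6.54% of all genes) and 1 was called (0.816% of all genes). The called gene was Tmem212, at 2.59, 2.2 and 2.4 CPM against 1.31, 0.787 and 1.44 (-1.01, SE 0.24). Dnah6, a ciliary dynein, was at 5.91, 3.42 and 5.05 CPM against 2.39, 2.87 and 2.65 (-0.86, SE 0.21). Foxj1, the master regulator of motile cilia, overlapped at 7.15 to 8.32 against 6.27 to 7.43 CPM. The ependymal list summed to 52.9 to 70.9 CPM against 43.7 to 50.2, without overlap.

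Meningeal fibroblast genes did not follow Ttr: 10 of 14 had the higher mean in the Ttr-low class and 4 the lower, with a median of 0.1. Only Lum, a matrix proteoglycan, did not overlap, at 4.75, 5.19 and 5.2 CPM against 3.28, 3.49 and 2.77 (log2 difference -0.67, SE 0.15). The list summed to 117 to 137 CPM in Ttr-high and 100 to 152 in Ttr-low libraries. Vessels and resident cells were likewise level, with medians of -0.02 for 9 endothelial, 0.03 for 8 mural, 0 for 9 microglial and -0.05 for 10 astrocyte genes. The 11 oligodendrocyte genes all had the lower mean (median -0.22) and all overlapped. The stroma and vessels of the choroid plexus share many of these markers with the rest of the brain. Plvap, on the endothelial list, overlapped at 3.93 to 5.35 CPM against 3.61 to 4.88 (log2 difference -0.08, SE 0.18).

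Hippocampal markers, chiefly of the dentate gyrus, were the second group that was low with Ttr. Of 12 genes 11 had the lower mean, with a median log2 difference of -1.58. On the lower side 9 did not overlap (6.54% of all genes) and 8 were called (0.816% of all genes). C1ql2, a synaptic organiser of mossy fibres, was at 11, 8.28 and 11.3 CPM in KI_WT 1, KI_WT 2 and KO_WT 2. It was at 1.34, 1.98 and 6.04 CPM in KI_WT 3, KO_WT 1 and KO_WT 3 (-1.7, SE 0.45). Prox1, the identity factor of dentate granule cells, was at 52.5, 39.6 and 58 CPM against 15.2, 19.6 and 34.6 (-1.11, SE 0.27). KO_WT 3 was thus between the classes, whereas its choroid transcripts were as low as those of the other 2. Spink8 (-1.99) and Lct (-1.74) were likewise highest in KO_WT 3 among the Ttr-low libraries. Summed, the list was at 247 to 349 CPM against 133 to 244.

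Striatal projection neuron genes lay the other way. All 11 had the higher mean in the Ttr-low class, with a median log2 difference of 0.73. Of them 3 did not overlap, against 6.26% of all genes on the higher side. Penk, preproenkephalin, was at 103, 116 and 165 CPM against 282, 222 and 180 (0.83, SE 0.2). Tac1, the substance P precursor, was at 33.8, 41.7 and 45.3 CPM against 87.2, 60.7 and 61.4 (0.79, SE 0.16), and Gpr6 gave 0.85 (SE 0.22). KO_WT 2 and KO_WT 3 were close to each other in the summed list, at 935 and 885 CPM, and KO_WT 1 was at 1260 CPM. The median for KO_WT 1 and KO_WT 3 together against KO_WT 2 was 0.19, and that of the knock-in line was 1.21. The list summed to 620 to 935 CPM in Ttr-high and 885 to 1420 in Ttr-low libraries.

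Olfactory bulb genes had the largest median, 3.49 over 11 genes that all had the higher mean. But only 2 of 11 did not overlap, against 6.26% of all genes on the higher side. Doc2g, a mitral cell transcript, was at 1.39, 2.54 and 1.41 CPM in KI_WT 1, KI_WT 2 and KO_WT 2, and at 71.8, 1.32 and 26.5 CPM in KI_WT 3, KO_WT 1 and KO_WT 3. KO_WT 1 was thus as low as the Ttr-high libraries. With KO_WT 1 as the only Ttr-low library, the olfactory bulb median turned to -0.16, while the choroid median was -1.78. Dlx2 (1.37, SE 0.32) and Pax6 (0.68, SE 0.23), factors of bulb interneurons, were the 2 without overlap. The list summed to 29.2 to 39.9 CPM against 33.7 to 465.

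Thalamic genes were set apart by 1 library. Prkcd, of thalamic relay neurons, was at 79.8 CPM in KO_WT 2 and at 13.5 to 17.2 in the other 5. All 10 thalamic genes had the lower mean in the Ttr-low class (median -0.6), and only Tcf7l2 did not overlap, at 16.1, 8.55 and 17.4 CPM against 6.54, 5.67 and 7.61 (log2 difference -1.08, SE 0.25). The list summed to 137 to 293 CPM in the Ttr-high and 121 to 129 in the Ttr-low libraries. Cortical layer genes went both ways, with medians of 0.05 over 10 upper-layer and 0.16 over 11 deep-layer genes. In the upper layers Inhba (0.51) and Cux1 (0.28) did not overlap on the higher side. In the deep layers 3 genes did not overlap on the higher side (6.26% of all genes) and 2 on the lower side (6.54%). Among them were Foxp2 (0.57) and Fezf2 (-0.58), and Syt6 was called higher (1.27, SE 0.29), against 0.441% of all genes.

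**Figure D3:**
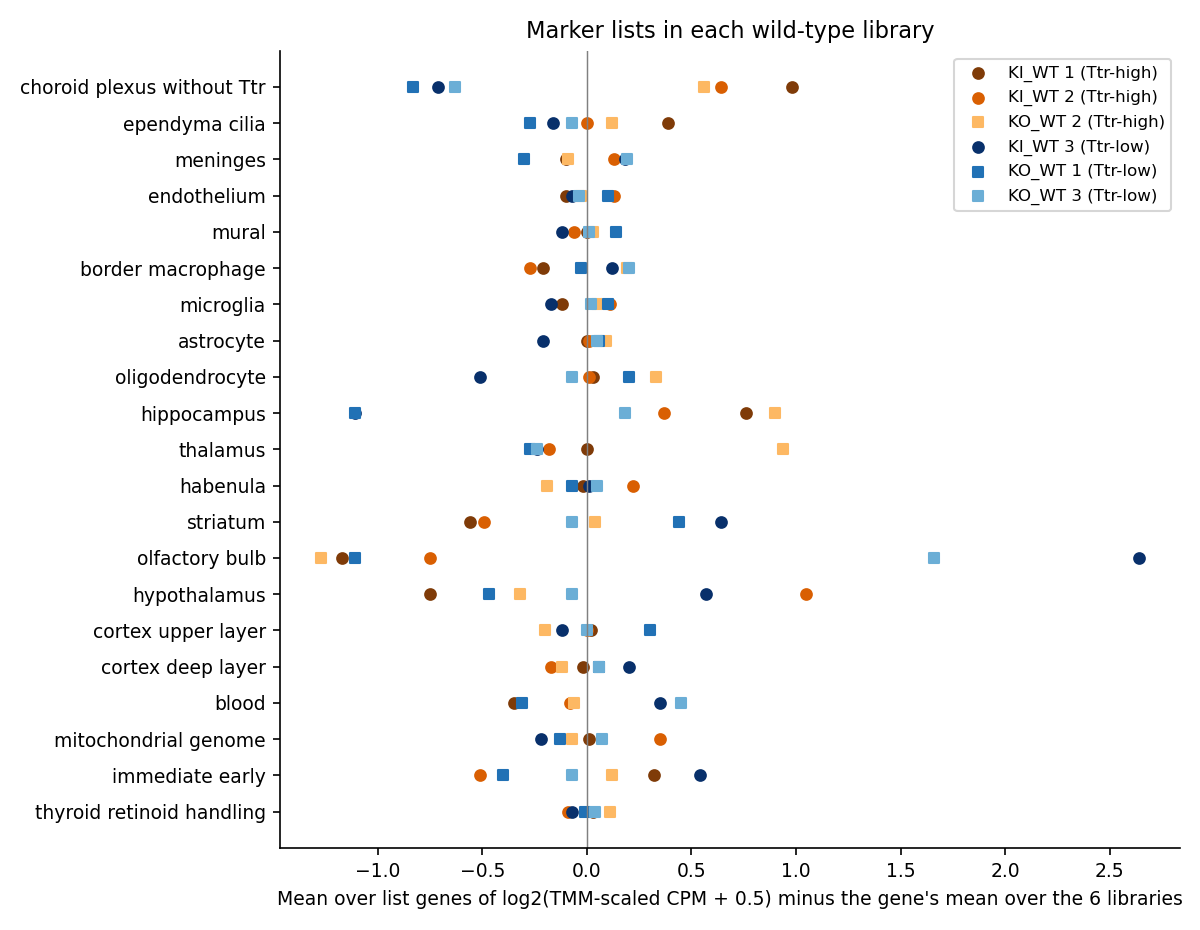
Each row is a marker list and each point 1 wild-type library; the horizontal axis is the mean over the list of log2(TMM-scaled CPM + 0.5) after subtracting each gene's mean over the 6 libraries. The choroid plexus row separates orange (Ttr-high, 0.56 to 0.98) from blue (Ttr-low, -0.83 to -0.63); the hippocampus row leaves KO_WT 3 at 0.18 and the olfactory bulb row puts KO_WT 1 at -1.11 beside the Ttr-high libraries.

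The remaining called genes can be placed only in part. Of the 137 lower genes 31 were on the choroid plexus list, 8 on the hippocampal list, 2 on other lists and 96 on no list. Among the 15 with the steepest differences and a mean of at least 1 CPM, 13 were on the choroid list. The other two were Prr32, at 4.17, 3.15 and 2.49 CPM against 0.0896, 0.315 and 0.211 (log2 difference -3.98, SE 0.37), and Shox2, a homeobox gene. Shox2 was highest in KO_WT 2, at 7.66 CPM, with 2.78 and 1.96 in the other Ttr-high and 0.0601 to 0.985 in the Ttr-low libraries (-3.38, SE 0.79).

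On the higher side, 63 of the 74 genes were highest in KI_WT 3 and 56 were lowest, within the Ttr-low class, in KO_WT 1. Among the 15 steepest were Clca1, Ush1g, Ppm1j, AI848285, Slco5a1, Pbx3, A230065H16Rik, Gng4, Rhcg, Abi3bp, Sp9, Ankfn1, Dlx2 and Ptpro, with log2 differences from 3.58 down to 1.36. Clca1, a secreted protein of the chloride channel accessory family, reached 9.79 CPM in KI_WT 3 and 6.77 in KO_WT 3, whereas KO_WT 1 had 0.598, against 0.458 to 0.485 in the Ttr-high class. Gng4, a G protein gamma subunit, was at 210, 50.4 and 133 CPM in KI_WT 3, KO_WT 1 and KO_WT 3 against 39.4, 46 and 36.4. In both genes KI_WT 3 and KO_WT 3 were high and KO_WT 1 was just above the Ttr-high libraries. Ankfn1 had a wider margin, with 2.05 CPM in KO_WT 1 against 0.781 to 1.25 in the Ttr-high class.

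Thyroid hormone and retinoid handling genes, the pathway of the transthyretin cargo, stayed near level. Of 13 genes 8 had the lower and 5 the higher mean in the Ttr-low class, with a median log2 difference of -0.08. Stra6, the membrane receptor for the retinol-binding protein, was the 1 gene without overlap, at 5.04, 4.83 and 7.66 CPM against 4.48, 3.97 and 3.91 (-0.5, SE 0.2). The 13 protein-coding transcripts of the mitochondrial genome had a median of -0.19, and all overlapped. The medians of the lists not yet given were 0 for 5 habenular, -0.49 for 7 hypothalamic, 0.18 for 6 border macrophage, 0.41 for 5 blood and -0.02 for 8 immediate early genes, with 0 called.

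The 6 mutant libraries did not enter the division, so the genes could be tested there. Ttr was at 1158, 1780 and 690.6 CPM in KI 1, KI 2 and KI 3 and at 827, 970 and 513 CPM in KO 1, KO 2 and KO 3. All 6 would thus have been Ttr-high. Each gene was fitted on the log2 level of Ttr with genotype as a term, and the slope is the log2 change per log2 unit of Ttr.

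edgeR's quasi-likelihood test called 0 of 17004 genes after Benjamini-Hochberg adjustment (0% of all genes; the smallest adjusted p was 0.859), with 867 genes (5.1%) at an unadjusted p under 0.05. Of the 30 choroid genes called lower in the wild types, 30 had a positive slope, with a median of 0.72, against 49.3% positive and a median of 0 over all genes. At an unadjusted p under 0.05 there were 25 of the 30, and 4 of the 15 other choroid genes. DESeq2 on the same libraries called 7 genes, 5 of them from the choroid list: Prlr (DESeq2 adjusted p = 5.27e-06), Cldn2 (2.69e-05), Clic6 (3.79e-05), 1500015O10Rik (0.00419) and Folr1 (0.0216), all with positive slopes.

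Cldn2 was at 7.55, 12.2 and 4.14 CPM in KI 1, KI 2 and KI 3 and at 4.27, 7.12 and 2.71 in KO 1, KO 2 and KO 3 (slope 1.23, SE 0.17; edgeR adjusted p = 0.859). Folr1 was at 7.41, 13.2 and 4.41 CPM and at 4.74, 7.35 and 4.36 in the same order (slope 1, SE 0.19; edgeR adjusted p = 0.859). Kcne2 was at 6.87, 8.3 and 4.47 CPM and at 5.75, 6.37 and 3.78 (slope 0.71, SE 0.14; edgeR adjusted p = 0.859). In each of these genes KI 2, the library with the most Ttr, was the highest, and KO 3, with the least, was the lowest.

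Among choroid genes with overlap or smaller differences in the wild types, slopes varied. Aqp1, which overlapped there, had a slope of 1.23 (SE 0.32; edgeR adjusted p = 0.859), at 2.15 CPM in KO 3 and 10.2 CPM in KI 2. Abcc4 had a slope of 0 (SE 0.17) and Slc12a2 of -0.13 (SE 0.092). Enpp2, at 661 to 1070 CPM, had the shallow slope of 0.29 (SE 0.12; edgeR adjusted p = 0.859). The genes with the level most like Ttr over the 6 libraries, by Pearson correlation of log2(CPM + 0.5), were Snf8 (0.992), Tomm40 (0.991), Akr7a5 (0.991), Col8a2 (0.989) and Adprh (0.989). Col8a2 alone of these is on the choroid list.

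Lists of other regions and tissues had slopes of either sign in the mutants. The hippocampal list, low with Ttr in the wild types, had 3 of 12 positive slopes and a median of -0.41. The olfactory bulb list had 12 of 12 positive slopes (median 1.34), against higher means in the Ttr-low wild types. Hypothalamic genes had 8 of 8 positive slopes (median 2.26) and oligodendrocyte genes 0 of 11 (median -0.51). Meningeal genes had 13 of 14 positive slopes (median 0.37), beside a median difference of 0.1 in the wild types, and striatal genes 10 of 11 (median 0.36). Thalamic genes had 0 of 10 (median -0.48). The ependymal list was near level, with 9 of 17 positive slopes and a median of 0.04. None of these genes passed the edgeR threshold, and how these regions bear on the choroid slopes was not tested. Xist was at 570 to 855 CPM in 4 of the 6 mutant libraries and at 0.138 and 0.141 in KO 3 and KI 1.

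**Figure D4:**
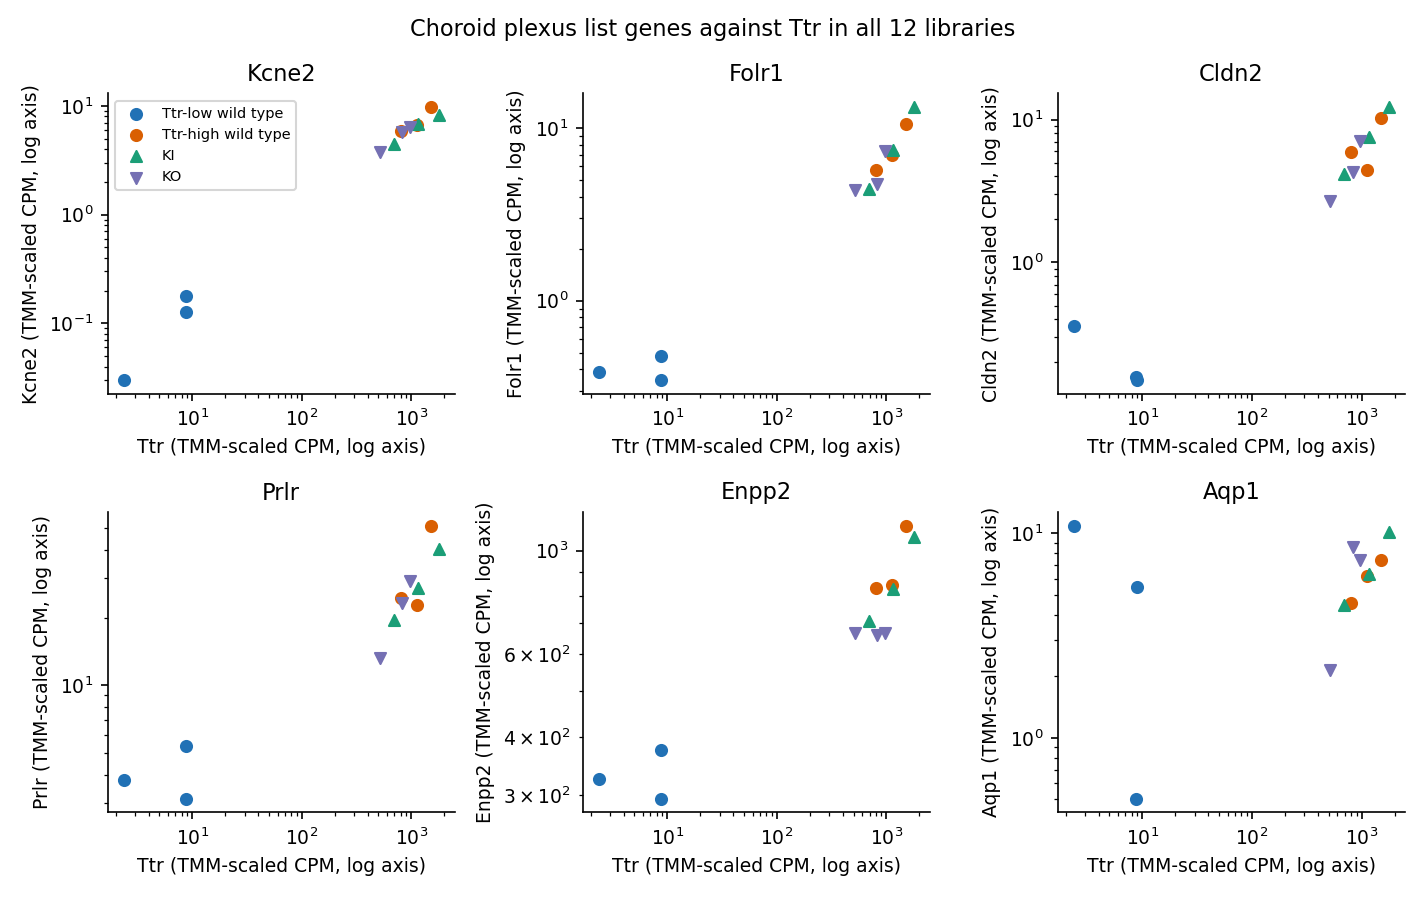
Each panel plots the level of 1 choroid plexus gene (vertical, TMM-scaled CPM, log axis) against that of Ttr (horizontal, same unit, log axis) in all 12 libraries; blue and orange circles are Ttr-low and Ttr-high wild types, triangles the KI and KO libraries. Kcne2, Folr1, Cldn2, Prlr and Enpp2 are lowest in the 3 Ttr-low libraries, while Aqp1 reaches 10.9 CPM in 1 of them (KI_WT 3).

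The uneven spread of Ttr over the groups enters the genotype comparisons, since 1 of 3 KI_WT and 2 of 3 KO_WT libraries were Ttr-low and 0 of 6 mutant libraries were. With all 12 libraries the 30 choroid genes called lower had a median log2 difference, KI minus KI_WT, of 0.36, and 30 of 30 were higher in KI. Over all genes the median was -0.01. For KO minus KO_WT the choroid median was 0.82, again with 30 of 30 higher, and 0.01 over all genes. The 30 genes were called because they were low in these same Ttr-low wild types, so both counts largely follow from that choice. Of all 45 measured choroid genes other than Ttr, 41 were higher in KI (median 0.3) and 42 in KO (median 0.74).

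Without the 3 Ttr-low libraries the choroid medians turned to -0.07 in the knock-in line (11 of 30 higher) and -0.17 in the knock-out line (6 of 30 higher). KO_WT 2 is then the only wild type of its line, and it is taken to vary like the other groups. Over the 45 genes the medians were then 0 and -0.13. The libraries were left out for their Ttr level, and the 30 genes were called on them, so this turn is a description. Folr1 was at 5.48 ± 1.63 CPM (SD, n = 3) in KO and 2.18 ± 3.06 (n = 3) in KO_WT, a log2 difference of 1.32 (SE 1; edgeR adjusted p = 0.742). Against KO_WT 2 alone, at 5.71 CPM, it was -0.06 (SE 0.52; edgeR adjusted p = 0.999).

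No choroid gene passed the threshold in either comparison, with the smallest edgeR adjusted p at 0.708 for KI and 0.678 for KO. For KI against KI_WT edgeR called 0 of 17441 genes (0% of all genes), with 1214 at an unadjusted p under 0.05, and DESeq2 called 2. For KO against KO_WT edgeR called 1 gene, Tpp1, a lysosomal peptidase (0.00573% of all genes), and DESeq2 called 8. Xist was among these 8 (log2 difference 11.87). Its level was 570 and 677 CPM in KO 1 and KO 2, 0.138 in KO 3 and 0.063 to 0.18 in KO_WT. It was 0.141, 648 and 855 CPM in KI 1, KI 2 and KI 3, against 750, 0.611 and 0.119 in KI_WT 1, KI_WT 2 and KI_WT 3. Xist was thus uneven between mutants and wild types, and its part in the calls was not tested. None of the genes called by DESeq2 in either comparison was on the choroid list. With all libraries, 2 of 45 choroid genes other than Ttr had an unadjusted edgeR p under 0.05 in each comparison. Over all 17441 genes there were 1214 for KI and 1260 for KO. For Kcne2 in KO against KO_WT the SE of the log2 difference was 1.2 with the Ttr-low libraries and 0.38 without. Leaving out libraries chosen for low Ttr narrows this spread by itself, and only KO_WT 2 is then left in KO_WT.

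**Figure D5:**
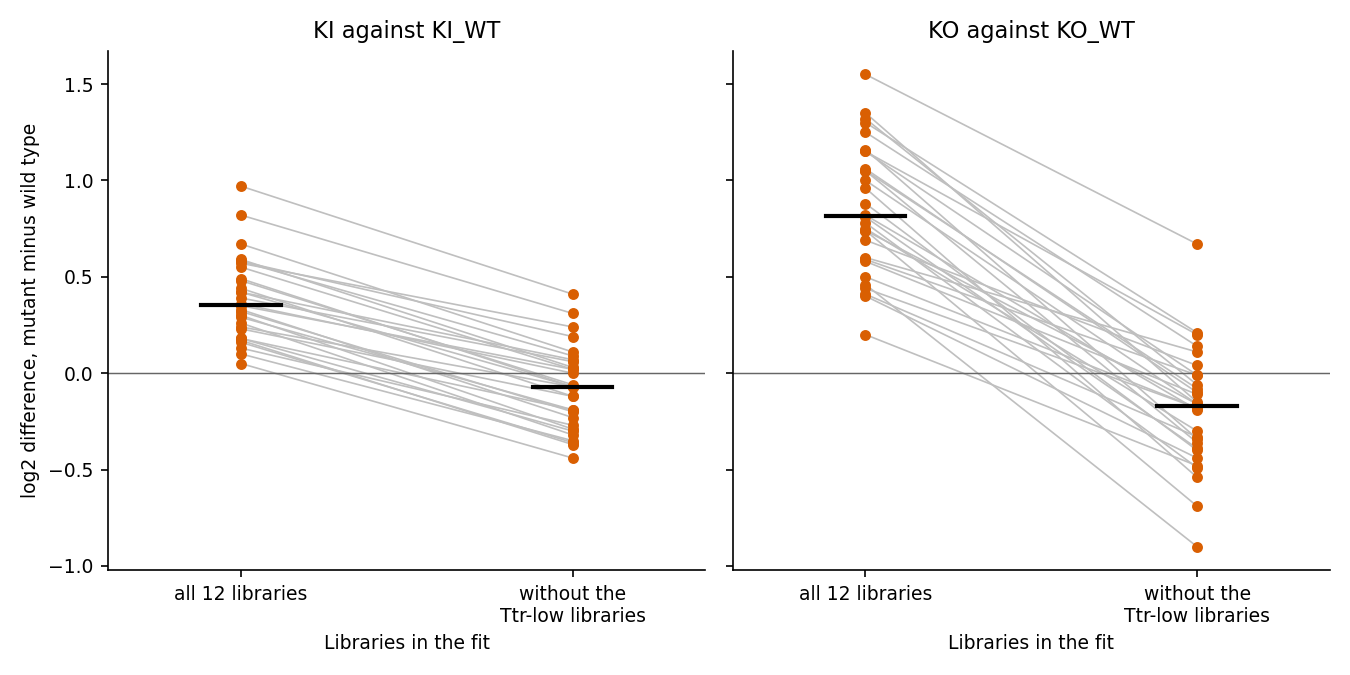
Points are the 30 choroid plexus genes called lower in the Ttr-low wild types, and lines join the same gene; the vertical axis is the log2 difference, mutant minus own wild type, and black bars are medians. With all 12 libraries every point is above 0 (medians 0.36 and 0.82), and without the 3 Ttr-low libraries the points straddle 0 (medians -0.07 and -0.17). The genes were called on the same wild types, so this pattern largely follows from their choice.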

How the data were processed

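Poly(A) RNA-seq counts of 12 libraries were used, with 6 wild types in the division by Ttr and 6 mutants outside it. Per the submitters' processing notes, the authors used bcl2fastq 2.17 and STAR 2.5.0c with GRCm38, and Cufflinks 2.2.1 is named without a role. The read counter, annotation and strand setting are not given in the sources used here. The deposited table holds raw counts per Ensembl gene (41388 rows), and a second table deposited by the authors holds RPKM, used only to order genes by level per length. No column was left without a sample.

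The Ttr threshold was 50 CPM of the column total. edgeR 4.0.16 was run in R 4.3.3 on the counts (filterByExpr, TMM factors over all 12 libraries, quasi-likelihood fits). The class difference is the fitted log2 difference with its SE. It has no p-value, since the classes were made from a gene of the same table. A call needed 3 against 3 libraries without overlap and at least 2-fold. In the mutants and the genotype comparisons p-values were Benjamini-Hochberg adjusted over all genes kept, with a threshold of 0.05. Alternatives were RLE size factors, no scaling, other count filters and folds, DESeq2 1.42.0, limma voom (limma 3.58.1), a term for line, and libraries left out. The scripts were tested on simulated data.

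The members and gene lists (25 lists) were chosen with earlier results of these data known. The naming rule takes Ttr and the choroid list, and the 15 steepest non-overlapping genes in each direction with a mean of at least 1 CPM. From every other list it takes up to 3 non-overlapping members, or else the 1 with the largest difference, not all of which are printed. A gene that the rule takes is not reported here. It also takes up to 10 genes called per direction in a test, and the 5 most like Ttr in the mutants. Foxj1, Prox1, Doc2g, Prkcd and the 8 genes given per Ttr count were chosen after their values had been seen, 3 of the latter being printed. Coordinates are from GENCODE on GRCm38, which held 40254 of the gene IDs, and promoters from RefSeq on GRCm38.p6.

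Separate animals are known from the numbers in the titles alone, and p-values measure the spread between these libraries.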

Additional observations from a re-analysis of the deposited data

Results flagged for a closer look

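Fosb, an immediate early gene of recent neuronal activity, differed between the lines in the wild types. It was higher with low Ttr in the knock-in line and near level in the knock-out line. Over both lines the classes overlapped (log2 difference 0.58, SE 0.39). In the knock-in line the Ttr-low library KI_WT 3, at 20.3 CPM, was above KI_WT 1 and KI_WT 2, at 10.4 and 4.8 CPM, a log2 difference of 1.36. In the knock-out line the Ttr-low libraries KO_WT 1 and KO_WT 3, at 7.49 and 8.84 CPM, were below KO_WT 2, at 9.34 CPM, a log2 difference of -0.18. The lines thus differed by 1.54, and this difference was not tested.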

How the results depend on the processing

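No paired analysis was possible because the library titles carry animal numbers and no number shared between groups. The 30 choroid calls and their negative median held their direction in every alternative run, with 20 to 31 calls and medians of -1.83 to -1.51. The counts over all genes moved. Genes lower were 367 at 1.5-fold, 37 at 4-fold, 504 with no count filter, 73 with at least 1 CPM in 3 libraries and 234 without KO_WT 2 and KO_WT 3. Genes higher were 181, 9, 211, 41 and 134 in the same order. With 1 library left out genes lower were 172 to 244 (244 without KO_WT 1 and also without KO_WT 3), as fewer libraries must not overlap. Genes higher were 47 (without KI_WT 3) to 253 (without KO_WT 1), with 138 without KI_WT 2 and 114 without KO_WT 2. With KO_WT 1 as the only Ttr-low library, an alternative chosen after seeing the data, 436 genes were lower, the hippocampal median was -2.42 and the olfactory bulb median -0.16. The choroid median was -1.51 with at least 1 CPM in 3 libraries, where fewer low genes are kept. Without KO_WT 2 and KO_WT 3 the hippocampal median was -2.44 and the striatal 1.1, and with single libraries left out the hippocampal median was -2.58 (without KO_WT 3) to -1.26.

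In the mutants DESeq2 called 7 genes and edgeR with single libraries left out 0 to 4, the 4 being Y-linked genes (Kdm5d, Uty, Ddx3y and Eif2s3y) called without KI 3. The choroid slopes were positive for 30 of 30 genes in every alternative. DESeq2 called 2 genes for KI and 8 for KO. For KO edgeR called 0 without the Ttr-low libraries, where 487 genes had an unadjusted p under 0.05, and 1 to 6 with single libraries left out (6 without KO 3). The choroid medians turned to -0.07 (KI) and -0.17 (KO) without the Ttr-low libraries. With single libraries left out they were -0.07 (without KI_WT 3) to 0.95 (without KI_WT 1) for KI, and 0.43 (without KO_WT 1) to 2.36 (without KO_WT 2) for KO. The KI median was also 0.15 without KI 2 and 0.55 without KI 3, and the KO median 0.51 without KO_WT 3 and 0.54 without KO 2. Where no construction is named, the cause was not tested. Of 1356 alternatives of single genes 1252 kept their value within the spread, 104 moved and 0 reversed. Counts under 10 limit the choroid genes in the Ttr-low class.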
